A study of Mus musculus with 16 samples.

Results

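Peaks of accessible chromatin that lie on copies of MIR and L2, 2 old families of mobile DNA, were described in mouse embryonic stem (ES) cells of 4 genotypes. The E14 ES cells had been profiled by ATAC-seq, where Tn5 transposase inserts sequencing adapters into DNA that is not packed away. A peak was a member when it lay more than 1000 bp from the nearest transcription start site (TSS) and the repeat annotation deposited with it named a repeat of family MIR (a SINE) or L2 (a LINE). Of 70150 peaks, 51266 lay beyond 1000 bp, here called distal peaks, and 490 of these were members, 267 on MIR and 223 on L2. A further 39 MIR and L2 peaks lay within 1000 bp and were left out. The members closest to the distance limit were at Gm47901, Taf5l and Gm25805 (1030, 1068 and 1120 bp), and the closest peaks outside it were at Ubl7, Cdhr3 and Ptprf (997, 946 and 933 bp).

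There were 4 libraries per genotype. The mutant groups were 2 degron lines, AID-Zzz3 and AID-Yeats2, and a Supt7l knockout (KO) line, and the control was wild type (WT). Zzz3 and Yeats2 belong to the ATAC complex, Supt7l to SAGA. Both complexes are coactivators that carry histone acetyltransferases. In the AID lines an auxin-inducible degron tag lets auxin trigger breakdown of the tagged protein. According to the labels all lines, WT and Supt7l KO included, received auxin for 24 h, so auxin itself is not compared with its absence. All cells grew on gelatine without feeder cells in serum medium with leukaemia inhibitory factor and the inhibitors CHIR99021 and PD0325901. The series text mentions independent clones and experiment days, but the labels tie neither to a library. The p-values therefore measure the spread between libraries of a genotype, estimated over all 16 libraries together. The 4 libraries of a genotype may share a clone or a day.

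MIR elements are short interspersed elements derived from a tRNA gene, and L2 elements are long interspersed elements whose protein machinery is thought to have copied MIR. Both families spread before the main groups of mammals parted, none of their mouse copies is known to move today, and their sequences have drifted far from the original. Old copies of both families are often found inside enhancers and other regulatory DNA, where stretches of the repeat can hold binding sites for transcription factors.

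Each library held 2492045 to 5540559 counts in peaks. Levels are given as CPM, counts per 1000000 counts in peaks after TMM scaling between libraries. All 8 ES cell markers had a promoter peak, with a median level of 28.4, 28.6, 35.7 and 31.4 CPM per kb in AID-Zzz3, AID-Yeats2, Supt7l KO and WT, and 4 of 8 fibroblast or feeder markers had one, at medians of 13.3, 12.5, 12.4 and 11.1. Promoter peaks were also present for 3 of 4 primitive endoderm markers, at medians of 24.5, 29.9, 31.8 and 26.7. For 4 of 4 trophoblast markers they were present at medians of 19.8, 21.6, 25.2 and 23.2. In AID-Yeats2 the primitive endoderm median was above that of the ES cell markers. An open promoter or its level alone thus did not set the cell types apart. In 2 regions the typical peak shifted as part of a block, though not every peak did: chromosome 14 from 60 Mb and chromosome 17 from 70 Mb. There WT replicates 1 and 4 stood apart from WT replicates 2 and 3, so the WT libraries did not behave as 1 group. These regions held 16 and 8 of the members, and counts of called members, shares of counts and class medians are given with and without them.

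Where the reference sequences at hand covered a member, its letters are shown. RefSeq promoter windows of the mouse build GRCm38.p6 (250 bases before to 50 after a gene's start) overlapped 7 members, and in 4 of them, all MIR peaks, the middle of the peak lay inside the window. The genes of these 4 windows are predicted RefSeq genes, while the deposited distances run to Ensembl start sites. The windows are printed 5′ to 3′ on the strand of the predicted gene, cut at the edge of the peak where they ran past it, and capitals mark matches to the motifs named after them.
Mlana peak, RefSeq promoter window of Gm36126, chr19:29684189-29684488 (- strand): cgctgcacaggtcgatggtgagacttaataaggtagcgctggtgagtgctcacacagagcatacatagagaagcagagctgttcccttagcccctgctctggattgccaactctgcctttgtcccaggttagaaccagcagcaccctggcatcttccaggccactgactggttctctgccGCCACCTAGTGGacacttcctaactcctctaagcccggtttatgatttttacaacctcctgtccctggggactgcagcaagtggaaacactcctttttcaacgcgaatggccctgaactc
Neurl1a peak, RefSeq promoter window of Gm36693, chr19:47202259-47202558 (- strand): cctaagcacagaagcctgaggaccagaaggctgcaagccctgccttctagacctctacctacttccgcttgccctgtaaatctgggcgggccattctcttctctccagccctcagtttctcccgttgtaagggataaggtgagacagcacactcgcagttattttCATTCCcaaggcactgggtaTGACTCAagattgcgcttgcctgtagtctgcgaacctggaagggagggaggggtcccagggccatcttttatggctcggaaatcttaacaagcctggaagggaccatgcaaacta
Gm11343 peak, RefSeq promoter window of Gm33573, chr13:24179603-24179902 (+ strand): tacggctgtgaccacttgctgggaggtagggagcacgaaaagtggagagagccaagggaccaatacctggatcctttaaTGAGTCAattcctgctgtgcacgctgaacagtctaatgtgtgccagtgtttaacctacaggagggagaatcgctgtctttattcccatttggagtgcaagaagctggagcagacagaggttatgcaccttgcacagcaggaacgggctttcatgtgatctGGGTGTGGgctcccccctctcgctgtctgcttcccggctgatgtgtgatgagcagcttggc
Gm48296 peak, RefSeq promoter window of Gm36263, chr12:100180904-100181087 (- strand): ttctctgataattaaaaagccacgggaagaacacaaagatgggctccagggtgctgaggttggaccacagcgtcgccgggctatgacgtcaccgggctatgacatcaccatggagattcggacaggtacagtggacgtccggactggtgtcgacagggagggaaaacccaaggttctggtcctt

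In the window of the peak near Mlana, the capitals match the CTCF core on the opposite strand (CC and AG with 3 bases between, then GGC after 2 more), which 8.67% of 32544 RefSeq promoter windows also held. Capitals in the windows at Neurl1a and Gm11343 match AP-1 (TGANTCA, in 7.79% of promoter windows) in both, TEAD (GGAATG, 14.6%) at Neurl1a and KLF (CCACACCC, 3.57%) at Gm11343. At Gm48296 none of the 10 motifs searched, each on both strands, matched. Also searched was a stricter CTCF form, of the same length as the core but with more of its letters fixed (0.980% of promoter windows). The others were ESRRB (TCAAGGTCA, 0.412%), the POU octamer (ATGCAAAT, 1.75%), SOX (ACAATG, 12.4%), the GC box (GGGGCGGGG, 11.5%) and NRF1 (GCGC and TGCGC with 1 base between, 4.63%). A match describes letters, not binding, and the 4 windows were set by the reference at hand rather than by their behaviour. Of these 4 peaks, the one near Mlana (MIRb; chromosome 19, 29684189 to 29684778) was called in 1 of the comparisons described further on, between the AID lines and Supt7l KO. It had 11.3, 8.91, 9.01 and 14.8 CPM in AID-Zzz3, 13.9, 9.65, 8.12 and 10.4 CPM in AID-Yeats2, 8.58, 6.09, 7.997 and 4.97 CPM in Supt7l KO and 7.64, 8.79, 7.20 and 9.08 CPM in WT. Against Supt7l KO it was higher in the AID lines (log2 fold change 0.63 ± 0.23, SE; edgeR adjusted p = 0.0428), with libraries of the 2 sides overlapping. The adjusted p-values in that comparison were 0.916 at Neurl1a, 0.609 at Gm11343 and 0.808 at Gm48296.

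The members were spread over 8 subfamilies. MIRb held 92 peaks, MIR 81, MIRc 56 and MIR3 38, while L2a held 74, L2 69, L2b 46 and L2c 34. By location 259 were in introns, 204 in intergenic DNA, 19 at transcription termination sites and 8 in exons. They had 478 different nearest genes, of which 11 had more than 1 member. Cerkl, a ceramide-kinase-like gene of the retina, had the most, 3 L2 peaks. Nearest genes with both a MIR and an L2 peak numbered 5.

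Of the 490 members, 487 passed the filter on low counts (266 MIR, 221 L2). The 3 that did not were narrow intronic peaks of 78 to 85 bp with at most 11 counts in any library. Tested MIR peaks had a median width of 698.5 bp and tested L2 peaks of 673 bp, against 628 bp over all distal peaks. Their median distance to a TSS was 11.4 kb for MIR and 13.2 kb for L2, against 12.1 kb over all distal peaks. Per kb of peak width the median WT level was 13.4 CPM for MIR and 13.1 CPM for L2, against 13.4 CPM over all distal peaks and 21.1 CPM over promoter peaks. The median coefficient of variation between WT libraries was 21.1% for MIR and 20.2% for L2, against 21.2% over all distal peaks. In level and in spread between replicates both families thus lay at the middle of distal peaks.

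The most open MIR peaks per kb in WT lay near Zbtb2, Gm12722, Mir6539, Tmem51os1 and Il6st. The intronic MIRb peak of Zbtb2, a zinc finger transcription factor gene, reached 42.5, 43.3, 49.3 and 46.9 ± 4.97 CPM per kb in AID-Zzz3, AID-Yeats2, Supt7l KO and WT (SD over 4 libraries for WT). Upstream of Il6st, which encodes gp130, the signalling chain of the leukaemia inhibitory factor receptor, a MIR peak at chromosome 13, 112462100 to 112462954 had 32.3, 30.4, 40.8 and 25.8 CPM in AID-Zzz3, 33.3, 28.3, 33.2 and 38.7 CPM in AID-Yeats2, 30.7, 41.8, 32.6 and 31.2 CPM in Supt7l KO and 36.1, 29.1, 37.8 and 36.8 CPM in WT. All 4 genotypes overlapped there. Among L2 peaks the levels per kb were highest near B330016D10Rik, Thap2, Gm8956, Gm43997 and Plcb4. The L2a peak near B330016D10Rik led both families, with 56.7 ± 7.59 CPM per kb in WT, and the next, near Thap2, had 47.9 ± 10.4 CPM per kb in WT, less than its own SD below the first. Of these 10 most open members none was called against WT, and 3 were lower in the AID lines than in Supt7l KO: Mir6539 (log2 fold change -0.64 ± 0.14; adjusted p = 9.13e-04), B330016D10Rik (-0.39 ± 0.13; 0.0233) and Gm43997 (-0.44 ± 0.13; 0.00984, all edgeR, with SE). Mir6539 lies in the chromosome 14 block. In the AID lines against Supt7l KO, 8.98% of all tested peaks and 4.42% of distal peaks were called lower. Against WT, at most 0.745% of all tested peaks were called in either direction of any comparison.

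The families were first compared as sums of raw counts. MIR peaks held 9804 to 13286 counts per library in AID-Zzz3, 8223 to 15531 in AID-Yeats2, 10398 to 15227 in Supt7l KO and 13516 to 17875 in WT. As a share of all counts in peaks this was 0.329, 0.322, 0.318 and 0.330% in AID-Zzz3, 0.330, 0.325, 0.335 and 0.320% in AID-Yeats2, 0.314, 0.309, 0.312 and 0.297% in Supt7l KO and 0.332, 0.323, 0.314 and 0.318% in WT. All 4 Supt7l KO libraries lay below all 4 WT libraries, narrowly so at the closest pair, whereas both AID lines overlapped WT. L2 peaks held 0.252, 0.248, 0.255 and 0.263% in AID-Zzz3, 0.259, 0.259, 0.253 and 0.255% in AID-Yeats2, 0.242, 0.236, 0.231 and 0.226% in Supt7l KO and 0.243, 0.252, 0.244 and 0.239% in WT. For L2 the 4 AID-Yeats2 libraries stood above the 4 WT libraries by a narrow margin, and AID-Zzz3 and Supt7l KO each overlapped WT. With the 2 blocks left out of both sums the same orders held. MIR peaks then took 0.318 to 0.328% in AID-Zzz3, 0.318 to 0.334% in AID-Yeats2, 0.294 to 0.311% in Supt7l KO and 0.312 to 0.327% in WT. L2 peaks took 0.243 to 0.257% in AID-Zzz3, 0.249 to 0.254% in AID-Yeats2, 0.222 to 0.237% in Supt7l KO and 0.234 to 0.246% in WT.

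Distal peaks as a whole moved the same way. They took 55.9 ± 0.967% of counts in AID-Zzz3, 56.2 ± 0.149% in AID-Yeats2, 51.6 ± 0.579% in Supt7l KO and 53.6 ± 0.497% in WT (mean ± SD, n = 4 each). Of the distal counts alone, MIR peaks held 0.581 ± 0.0126%, 0.583 ± 0.00971%, 0.598 ± 0.0137% and 0.601 ± 0.0149% in AID-Zzz3, AID-Yeats2, Supt7l KO and WT. L2 peaks held 0.455 ± 0.00474%, 0.456 ± 0.00625%, 0.453 ± 0.0152% and 0.457 ± 0.00731% in the same order. Within distal DNA the genotypes overlapped for both families. The ratio of MIR to L2 counts was 1.31, 1.30, 1.24 and 1.26 in AID-Zzz3, 1.27, 1.25, 1.32 and 1.26 in AID-Yeats2, 1.30, 1.31, 1.35 and 1.32 in Supt7l KO and 1.37, 1.28, 1.29 and 1.33 in WT, and the 4 ranges overlapped.

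**Figure D1:**
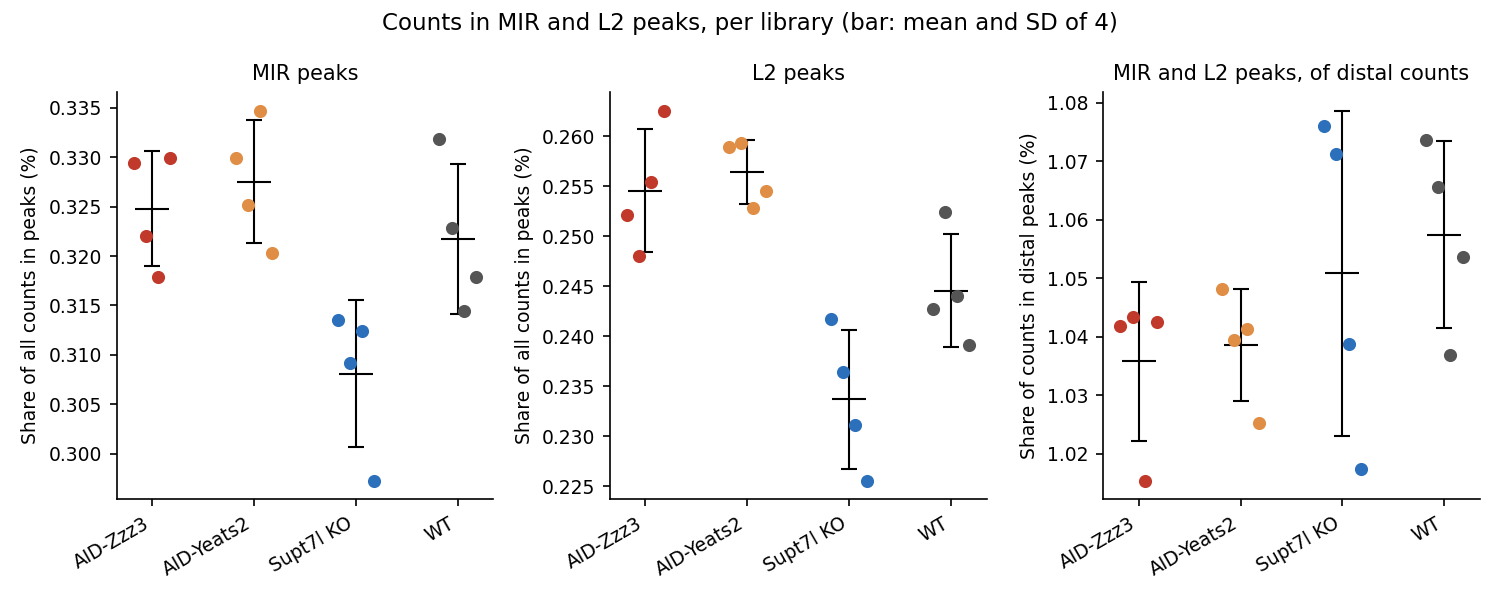
Share of raw counts in MIR peaks (left) and L2 peaks (middle) out of all counts in peaks, and in both out of counts in distal peaks (right), in percent; each point is 1 library of the genotype on the x axis, bars give mean and SD of 4, and the y axes do not start at 0. The 4 Supt7l KO points lie below the WT points in the left panel, and all genotypes overlap in the right one.

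Peak by peak, the typical member hardly moved. The median log2 fold change of MIR peaks was 0.023 in AID-Zzz3 against WT, 0.013 in AID-Yeats2 against WT and -0.038 in Supt7l KO against WT. L2 peaks gave 0.0036, 0.078 and -0.059 in these comparisons. Over all distal peaks the medians were 0.046, 0.052 and -0.040, and over promoter peaks -0.11, -0.11 and 0.086. The interquartile range of MIR peaks was -0.23 to 0.21 in AID-Zzz3 against WT, and that of L2 -0.15 to 0.28. Set against the WT mean, the median MIR peak of single libraries stood at 0.0017, -0.0049, 0.036 and 0.041 in AID-Zzz3, 0.056, -0.020, 0.072 and 0.012 in AID-Yeats2, 0.0027, -0.036, -0.0010 and -0.044 in Supt7l KO and 0.054, 0.020, -0.010 and 0.0057 in WT. For L2 these medians were 0.030, 0.014, 0.086 and 0.092 in AID-Zzz3, 0.070, 0.058, 0.086 and 0.10 in AID-Yeats2, 0.0053, -0.022, -0.028 and -0.064 in Supt7l KO and -0.0091, 0.046, 0.0032 and 0.0041 in WT. In AID-Yeats2 every library stood above every WT library for L2 and 2 of 4 did for MIR. The same separation held for all distal peaks, whose medians were 0.055, 0.060, 0.063 and 0.060 in AID-Yeats2 and 0.0032, 0.013, 0.021 and -0.0028 in WT. Taken relative to the distal median of the same library, L2 peaks ran from -0.0022 to 0.042 in AID-Yeats2 and from -0.018 to 0.033 in WT, so the groups overlapped.

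Medians this close to 0 moved with the choice of libraries. In fits without 1 library the MIR median ran from 0.0048 (AID-Zzz3 replicate 2 left out) to 0.042 (WT replicate 1) in AID-Zzz3 against WT, and from 0.0095 (AID-Yeats2 replicate 3) to 0.039 (WT replicate 2) in AID-Yeats2 against WT. In AID-Yeats2 the MIR median was -0.0036 with loess offsets and -0.0036 within replicates 1 and 2. The L2 median in AID-Zzz3 was -0.011 with loess offsets and -0.032 within replicates 1 and 2. No direction is therefore read from these 3 medians. Outside the blocks of chromosomes 14 and 17 the medians were 0.036, 0.023 and -0.048 for MIR and 0.0081, 0.078 and -0.057 for L2 in AID-Zzz3, AID-Yeats2 and Supt7l KO against WT.

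Other repeat families on distal peaks are given as a yardstick, with no test between families. L1, the LINE family still active in mice, had medians of 0.23 in AID-Zzz3 and 0.22 in AID-Yeats2 against WT, and ERV1, a family of endogenous retroviruses, had 0.13 and 0.12. In Supt7l KO against WT, B2, a mouse SINE, stood at -0.12 and ERV1 at -0.16. Other old families, CR1 (a LINE) and hAT-Charlie (a DNA transposon), had medians of -0.054 and 0.013 in AID-Zzz3 and 0.011 and -0.054 in Supt7l KO. Medians of both MIR and L2 lay nearer 0 than those of L1 and ERV1 in each AID line.

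**Figure D2:**
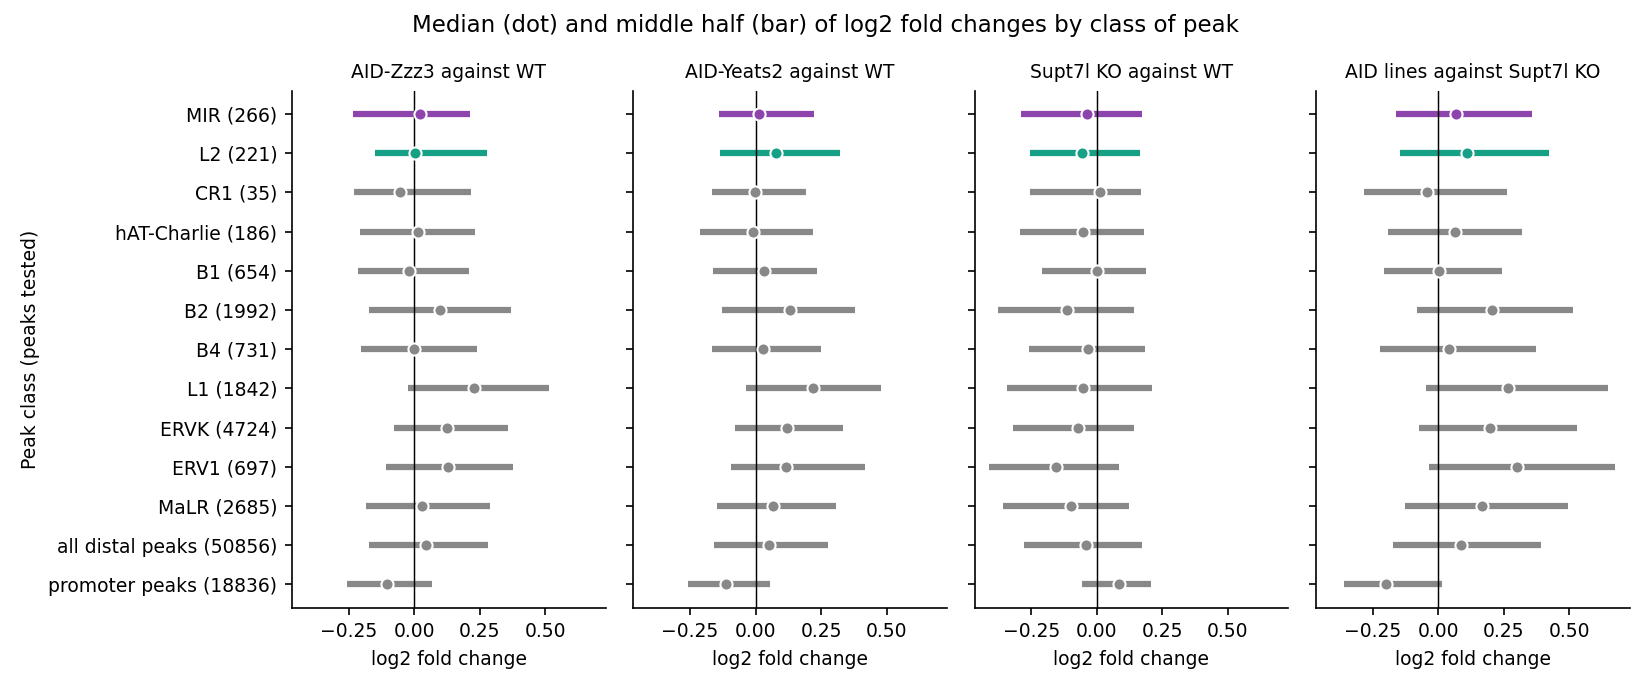
Median (dot) and interquartile range (bar) of the log2 fold change per peak, for MIR (purple), L2 (green) and other classes of peaks (grey, number tested in brackets), in 4 comparisons. MIR and L2 sit near 0 with the distal peaks, L1 sits at 0.23 in AID-Zzz3 against WT, and promoter peaks at -0.11.

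The comparison of AID-Zzz3 with WT asks which old repeat copies differ in accessibility between the degron line of this ATAC subunit and WT. Loss of the protein, the tag and the line cannot be told apart in it. Few members were called. Of 487 tested members, 5 were higher in AID-Zzz3 (3 L2, 2 MIR) and 1 was lower (L2). Over all 69692 tested peaks 0.634% were called higher and 0.346% lower, and over distal peaks 0.755% and 0.177%, so 5 and 1 members are near that background. An unadjusted p under 0.05 was reached by 69 members (14.2%), 41 higher and 28 lower, beside 14.3% of all tested peaks. A peak was called at an edgeR quasi-likelihood adjusted p under 0.05 over all tested peaks. Within replicates 1 and 2 alone edgeR called 0 higher and 0 lower (23 and 20 at an unadjusted p under 0.05), and replicates 3 and 4 by themselves gave 2 higher and 0 lower (35 and 23 unadjusted). With the sets, replicates 1 and 2 against 3 and 4, as a term in the fit of all libraries, 8 were called higher and 3 lower.

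The largest rise was at an L2b peak near the lincRNA gene Gm48155 (ENSMUSG00000114461; chromosome 13, 82080801 to 82081734; intergenic). It had 8.32, 8.19, 16.6 and 12.3 CPM in AID-Zzz3, 7.13, 11.7, 10.1 and 8.04 CPM in AID-Yeats2, 4.91, 3.78, 5.54 and 5.25 CPM in Supt7l KO and 3.35, 6.01, 3.96 and 6.45 CPM in WT. All AID-Zzz3 libraries, and all AID-Yeats2 libraries, stood above all WT libraries, while Supt7l KO stayed among them. The log2 fold change in AID-Zzz3 was 1.22 ± 0.28 (SE; adjusted p = 0.0130), and in AID-Yeats2 it was 0.95 ± 0.28 without a call (adjusted p = 0.0771). The call was lost without AID-Zzz3 replicate 3 or WT replicate 1 (adjusted p up to 0.138).

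A MIRb peak in an intron of Pdzd2, which encodes a protein with PDZ domains (chromosome 15, 12438073 to 12438658), had 8.65, 7.47, 7.88 and 8.001 CPM in AID-Zzz3, 6.34, 8.01, 4.92 and 9.53 CPM in AID-Yeats2, 5.89, 9.44, 7.38 and 5.25 CPM in Supt7l KO and 5.22, 2.54, 3.60 and 2.63 CPM in WT. All AID-Zzz3 and all Supt7l KO libraries stood above all WT libraries, Supt7l KO only just, and AID-Yeats2 overlapped WT by replicate 3. The log2 fold changes were 1.159 ± 0.30 in AID-Zzz3 (adjusted p = 0.0335), 1.01 ± 0.30 in AID-Yeats2 (0.0814) and 0.98 ± 0.30 in Supt7l KO (0.0910), all against the same WT libraries. The first alone passed the threshold. It was lost with loess offsets (adjusted p = 0.0516) and without any 1 of AID-Zzz3 replicates 1, 3 and 4 and WT replicates 2, 3 and 4 (adjusted p up to 0.120).

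An L2b peak 17819 bp upstream of Stk32a, a serine/threonine kinase gene (chromosome 18, 43189406 to 43190351), had 18.3, 12.04, 15.2 and 13.002 CPM in AID-Zzz3, 8.32, 9.86, 9.35 and 12.5 CPM in AID-Yeats2, 9.08, 7.13, 7.997 and 5.52 CPM in Supt7l KO and 7.08, 7.17, 7.91 and 8.13 CPM in WT (log2 fold change in AID-Zzz3 0.94 ± 0.23, adjusted p = 0.0248). The WT libraries were tight and AID-Zzz3 lay wholly above them, as did AID-Yeats2 by a narrow margin. Another L2b peak, near Gm43363 (chromosome 5, 90382708 to 90383702), had 17.3, 26.7, 30.4 and 25.3 CPM in AID-Zzz3, 23.4, 21.97, 22.9 and 23.5 CPM in AID-Yeats2, 13.5, 15.5, 14.8 and 13.8 CPM in Supt7l KO and 14.9, 15.95, 15.8 and 16.5 CPM in WT (log2 fold change in AID-Zzz3 0.67 ± 0.17, adjusted p = 0.0361). Both AID lines were above WT in every library. Near the pseudogene Gm11223 a MIRb peak (chromosome 4, 69892408 to 69893224) had 35.3, 32.8, 29.6 and 34.3 CPM in AID-Zzz3, 30.1, 30.4, 25.4 and 28.6 CPM in AID-Yeats2, 23.3, 22.9, 26.1 and 22.9 CPM in Supt7l KO and 17.7, 21.5, 24.1 and 21.3 CPM in WT (log2 fold change in AID-Zzz3 0.64 ± 0.15, adjusted p = 0.0169). AID-Zzz3 and AID-Yeats2 did not overlap WT there. All 3 L2 peaks that rose were of subfamily L2b, which had 46 tested peaks, a detail noticed after the values were seen.

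The member that fell in AID-Zzz3 was an intergenic L2c peak 63238 bp from Cerkl (chromosome 2, 79519667 to 79520379). In the RefSeq annotation its nearest gene is Neurod1, a neuronal transcription factor. It had 6.32, 11.1, 4.78 and 9.001 CPM in AID-Zzz3, 6.74, 8.42, 6.40 and 12.8 CPM in AID-Yeats2, 9.57, 12.2, 16.9 and 11.6 CPM in Supt7l KO and 12.7, 15.03, 16.7 and 15.1 CPM in WT. AID-Zzz3 lay wholly below WT (log2 fold change -0.91 ± 0.24, adjusted p = 0.0415), and AID-Yeats2 overlapped it by 1 library. Calls that fell away when 1 of the 8 libraries was left out were those at Cerkl (all but AID-Zzz3 replicate 2, adjusted p up to 0.209), Gm43363 (all but AID-Zzz3 replicate 1, up to 0.189), Stk32a (AID-Zzz3 replicates 1 and 3 and WT replicates 1, 2 and 4, up to 0.0950) and Gm11223 (AID-Zzz3 replicates 1 and 4 and WT replicate 1, up to 0.103).

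Members whose 4 AID-Zzz3 libraries all lay above the 4 WT libraries numbered 22, of which 16 were L2 (7.24% of L2) and 6 MIR (2.256% of MIR), against 3.96% of all tested peaks. In the other direction it was 14 members, 4 L2 and 10 MIR, against 3.51% of all tested peaks. Outside the blocks these were 22 and 13 of 463 tested members, beside 2290 and 1115 of the 48956 distal peaks there. The lean of L2 to the higher side is a count with no test of the difference between families.

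The same question was put to the other ATAC subunit with AID-Yeats2 and WT. In it 2 members were higher, 1 MIR and 1 L2, and 0 were lower by edgeR. Over all tested peaks 0.524% were called higher and 0.298% lower, and over distal peaks 0.641% and 0.132%, so both counts are near or below the background. An unadjusted p under 0.05 was reached by 60 members (12.3%), 29 higher and 31 lower, beside 13.4% of all tested peaks, and DESeq2 also called 0 lower. Within replicates 1 and 2 alone edgeR called 0 higher and 0 lower (23 and 23 unadjusted), and replicates 3 and 4 by themselves gave 1 higher and 0 lower (26 and 15 unadjusted). With the sets as a term, 4 were called higher and 3 lower.

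The larger rise was at a MIR peak in an intron of Dele1 whose nearest TSS is that of the noncoding gene 1700086O06Rik (chromosome 18, 38259699 to 38260812; 1114 bp wide). Dele1 encodes a mitochondrial protein that, in human cells, relays mitochondrial stress to the integrated stress response. The peak had 10.7, 14.8, 15.3 and 15.8 CPM in AID-Yeats2, 7.99, 13.97, 6.47 and 15.8 CPM in AID-Zzz3, 10.5, 6.09, 11.4 and 10.2 CPM in Supt7l KO and 6.89, 7.17, 5.94 and 4.78 CPM in WT. Every AID-Yeats2 library was above every WT library, while AID-Zzz3 was split between low replicates 1 and 3 and high replicates 2 and 4. The log2 fold change in AID-Yeats2 was 1.196 ± 0.25 (a 2.29-fold rise; adjusted p = 0.00694), and the call held in all 8 fits that left out 1 library. In AID-Zzz3 it was 0.85 ± 0.26 (adjusted p = 0.0833).

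The other rise was at an intronic L2 peak near the pseudogene Gm44052 (chromosome 6, 67225556 to 67226528), with 19.8, 24.4, 14.3 and 17.6 CPM in AID-Yeats2, 17.6, 15.2, 20.3 and 17.003 CPM in AID-Zzz3, 12.02, 16.8, 13.5 and 14.9 CPM in Supt7l KO and 13.6, 12.3, 8.99 and 8.60 CPM in WT (log2 fold change in AID-Yeats2 0.81 ± 0.20, adjusted p = 0.0314). Neither AID line overlapped WT, whose replicates 3 and 4 were the low ones, and the call was in AID-Yeats2 alone. The call was lost without any 1 of AID-Yeats2 replicates 1, 2 and 4 and WT replicates 3 and 4 (adjusted p up to 0.200). The members next in order did not pass in the fit without a term for the sets of replicates. They were L2 peaks in introns of Dgkh, a diacylglycerol kinase gene on chromosome 14 (log2 fold change -0.91 ± 0.25, adjusted p = 0.0545), and of Cerkl (0.66 ± 0.19; 0.0665), and a MIRc peak in an intron of the clathrin light chain gene Cltb (-0.55 ± 0.16; 0.0692). With the sets as a term all 3 were called (adjusted p = 0.0270 at Dgkh, 0.0373 at Cerkl and 0.0330 at Cltb), and DESeq2 called the one at Cerkl (0.0493).

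All 4 AID-Yeats2 libraries lay above all 4 WT libraries at 18 members, 14 L2 and 4 MIR, against 4.09% of all tested peaks. They lay below at 10 members, 5 of each family, against 3.6% of all tested peaks. Both counts were the same among the 463 tested members outside the blocks, beside 2403 and 1042 of the 48956 distal peaks there. Since both AID lines were set against the same WT libraries, like counts in AID-Zzz3 and AID-Yeats2 are not independent of each other.

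The comparison of Supt7l KO with WT asks which copies differ between the knockout line of this SAGA subunit and WT. The knockout and the line cannot be told apart in it. Here 4 members were lower, 3 L2 and 1 MIR, and 0 were higher by edgeR. Over all tested peaks 0.745% were called lower and 0.342% higher, and over distal peaks 0.885% and 0.285%. The 4 lower members are near that background. An unadjusted p under 0.05 was reached by 67 members (13.8%), 17 higher and 50 lower, beside 12.4% of all tested peaks, and DESeq2 called 0 higher. Within replicates 1 and 2 alone edgeR called 1 lower and 0 higher (21 and 13 unadjusted), within replicates 3 and 4 alone 2 lower and 0 higher (48 and 28 unadjusted), and outside the blocks of chromosomes 14 and 17 there were 3 lower.

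The lowest of them, an L2 peak in an intron of Galm, the galactose mutarotase gene, lay nearest to the noncoding gene Gm25706 (ENSMUSG00000088453; chromosome 17, 80174438 to 80175455). It held 42, 39, 16 and 35 raw counts in Supt7l KO and 113, 144, 191 and 66 in WT. Scaled, it had 10.3, 8.18, 4.92 and 9.66 CPM in Supt7l KO, 37.3, 29.1, 35.2 and 36.3 CPM in AID-Zzz3, 44.8, 33.7, 26.8 and 30.1 CPM in AID-Yeats2 and 21.05, 33.3, 34.4 and 15.8 CPM in WT. Every Supt7l KO library lay below every other library. The log2 fold change was -1.65 ± 0.20 (0.320 of the WT level; adjusted p = 7.58e-08), and the call held in all 8 fits that left out 1 library. The peak lies in the chromosome 17 block, where all peaks had a median log2 fold change of -0.61 in Supt7l KO against WT and where WT replicates 1 and 4 were also the lower WT libraries at this peak. The part of the block in the result was not tested.

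The other 3 lower members lay outside both blocks. An intergenic L2 peak of 271 bp near the noncoding gene Gm47884 (chromosome 13, 13950437 to 13950707), beside B3galnt2, which encodes a glycosyltransferase, had 6.13, 6.30, 4.61 and 4.69 CPM in Supt7l KO, 11.7, 16.9, 12.1 and 11.002 CPM in AID-Zzz3, 7.13, 12.1, 11.8 and 12.2 CPM in AID-Yeats2 and 9.13, 12.3, 10.4 and 11.7 CPM in WT (log2 fold change in Supt7l KO -0.98 ± 0.25, adjusted p = 0.0295). Supt7l KO did not overlap any other genotype there. An L2 peak near the pseudogene Gm13549 (chromosome 2, 59424263 to 59425057) had 7.85, 11.8, 9.84 and 3.59 CPM in Supt7l KO, 12.6, 13.2, 12.7 and 13.002 CPM in AID-Zzz3, 11.5, 10.3, 13.8 and 15.2 CPM in AID-Yeats2 and 13.97, 17.3, 16.01 and 17.7 CPM in WT (log2 fold change in Supt7l KO -0.95 ± 0.23, adjusted p = 0.0166). Supt7l KO did not overlap WT, and its replicate 4 was the lowest. A MIRb peak near the noncoding gene 2810471M01Rik (chromosome 11, 28699234 to 28700139) had 4.17, 5.04, 7.69 and 4.42 CPM in Supt7l KO, 8.65, 13.2, 10.1 and 11.5 CPM in AID-Zzz3, 6.34, 10.3, 12.3 and 11.9 CPM in AID-Yeats2 and 9.13, 13.9, 9.17 and 8.84 CPM in WT (log2 fold change in Supt7l KO -0.95 ± 0.26, adjusted p = 0.0495). Supt7l KO was below WT in every library. The call at Gm47884 was lost without any 1 of Supt7l KO replicates 3 and 4 and WT replicates 2, 3 and 4 (adjusted p up to 0.119), that at Gm13549 without Supt7l KO replicates 1 and 4 and WT replicates 2 and 3 (up to 0.138), and that at 2810471M01Rik without Supt7l KO replicates 1, 2 and 4 and WT replicates 2 and 3 (up to 0.252). At 2810471M01Rik it was also lost with loess offsets (0.0623). The next member, a MIRb peak near Zfp36l2, an RNA-binding protein gene in the chromosome 17 block, had a log2 fold change of -1.52 ± 0.45 without a call (adjusted p = 0.0773). With the sets as a term it was called (0.0458).

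Supt7l KO libraries lay wholly below WT at 21 members, 8 L2 and 13 MIR, against 3.67% of all tested peaks, and wholly above at 14, 4 L2 and 10 MIR, against 3.15%. Outside the blocks these were 20 and 13 of 463 tested members, beside 2141 and 1130 of the 48956 distal peaks there.

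**Figure D3:**
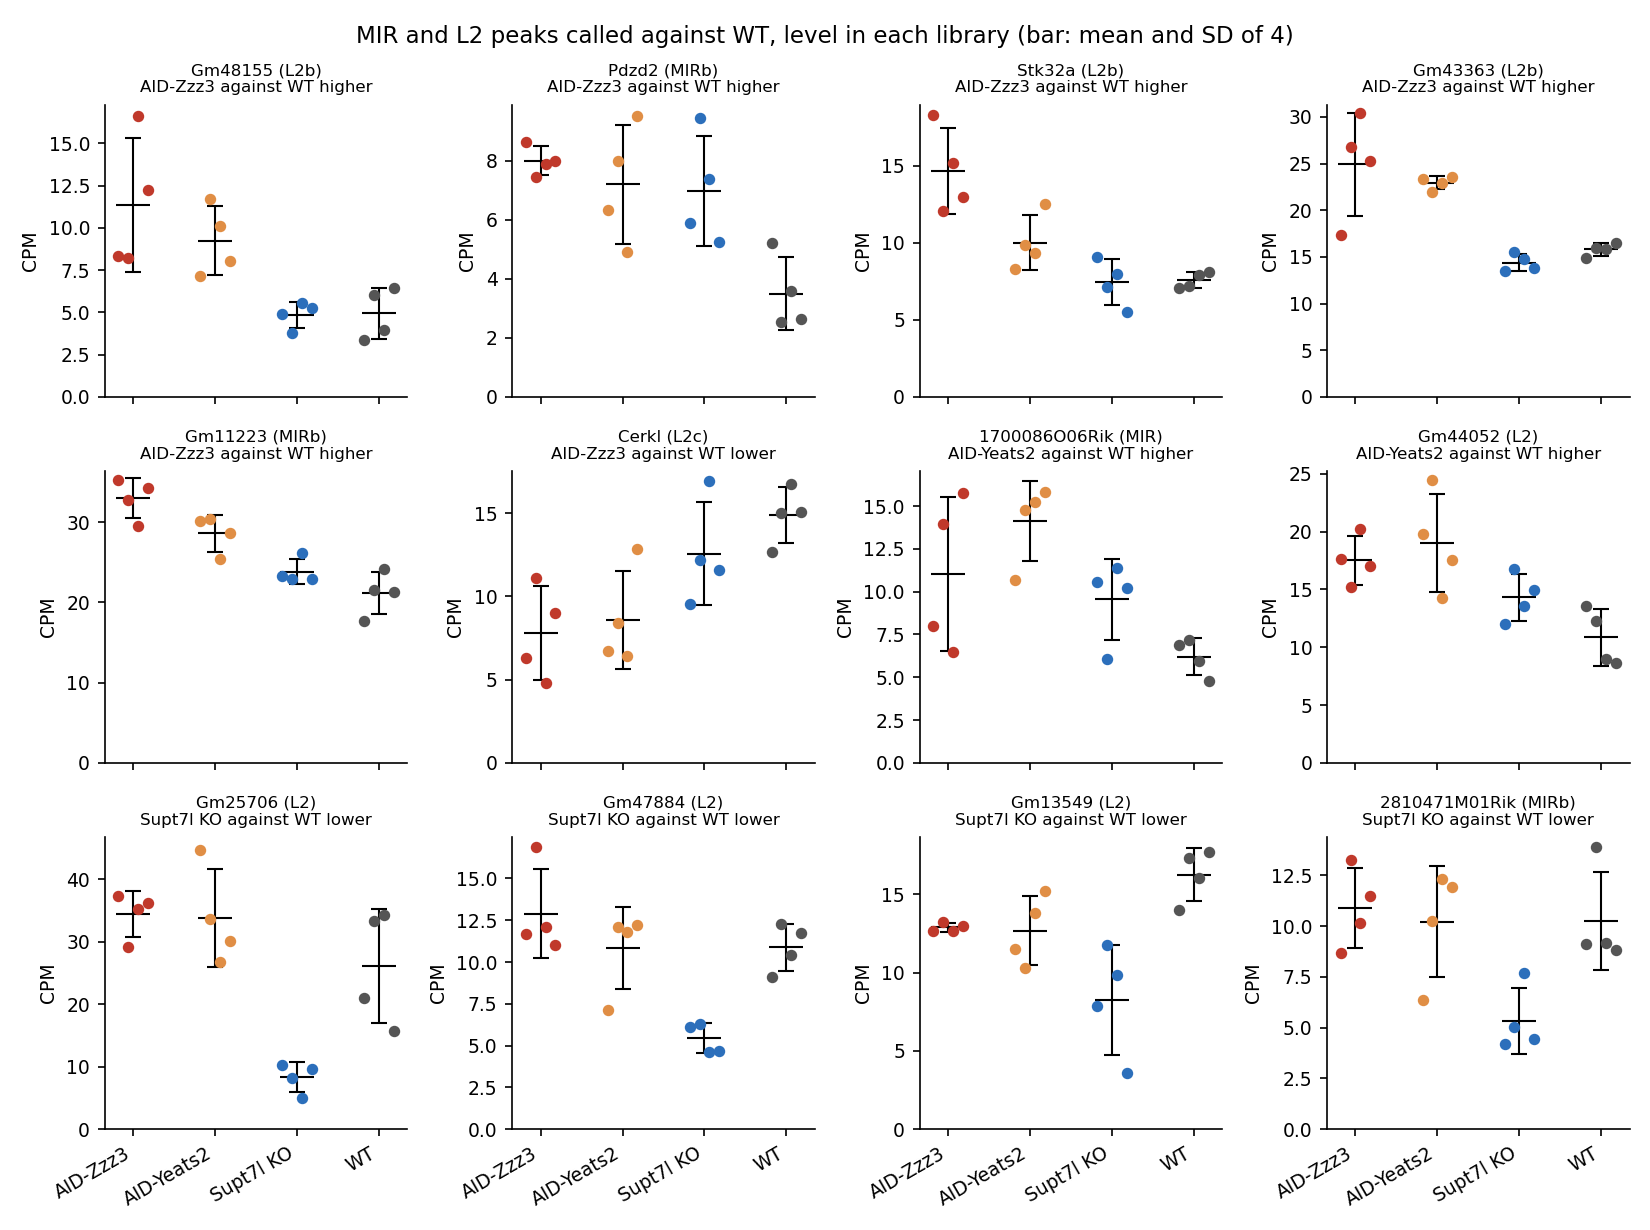
Level in CPM (TMM-scaled) of the 12 MIR and L2 peaks called in a mutant against WT, 1 panel per peak, titled with the nearest gene, the repeat and the comparison; each point is 1 library and bars give mean and SD of 4. Gm25706 stands out, with all Supt7l KO points at or below 10.3 CPM and all WT points at or above 15.8 CPM.

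The AID lines together were compared with Supt7l KO, which asks where degron lines of ATAC subunits and a knockout line of a SAGA subunit differ in accessibility. The sides differ in the complex, but also in the degron tag, in the kind of loss (auxin for 24 h or a knockout) and in the line. These cannot be told apart here. The comparison sets 8 libraries against 4. WT has no weight in it, but the WT libraries are in the fit and share its estimate of the spread. Here 53 members were higher in the AID lines and 22 lower (edgeR adjusted p under 0.05), and 53 and 20 in a fit without WT. Over all tested peaks 8.57% were called higher and 8.98% lower, and over distal peaks 10.5% and 4.42%. The members, at 10.9% higher and 4.52% lower, stood close to the distal background. Outside the blocks of chromosomes 14 and 17 the counts were 47 (10.2%) and 15 (3.24%), against 9.997% and 3.57% of the distal peaks there. Replicates 1 and 2 by themselves gave 12 higher and 9 lower, and replicates 3 and 4 gave 35 and 10.

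By family, 32 of 221 L2 peaks (14.5%) and 21 of 266 MIR peaks (7.89%) were higher, and 11 of each (4.98% and 4.14%) were lower. Outside the blocks it was 28 of 210 L2 peaks (13.3%) and 19 of 253 MIR peaks (7.51%) that were higher, and 8 (3.81%) and 7 (2.77%) that were lower. No test was run of the difference between the families. By subfamily, L2a had 16.7% higher, L2 15.9%, MIRb and L2b 13.04% each, L2c 8.82%, MIRc 7.27%, MIR 4.94% and MIR3 2.63%. In number of peaks the last was 1 of 38 and the first 12 of 72. Without the blocks L2c and MIRc changed places, and L2a had 16.4% higher, L2 14.1%, L2b 13.04%, MIRb 11.6%, MIRc 7.55%, L2c 6.06%, MIR 5.06% and MIR3 2.86%. Median log2 fold changes were 0.11 for L2 and 0.069 for MIR, beside 0.087 over all distal peaks, and outside the blocks 0.11, 0.076 and 0.092. Of the 53 higher members 31 were intergenic and 19 intronic, and of the 22 lower ones 7 were intergenic and 14 intronic. WT lay between the AID lines and Supt7l KO in mean CPM at 48 of the 53 and at 18 of the 22, a position that choosing peaks for a gap between the other groups favours.

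**Figure D4:**
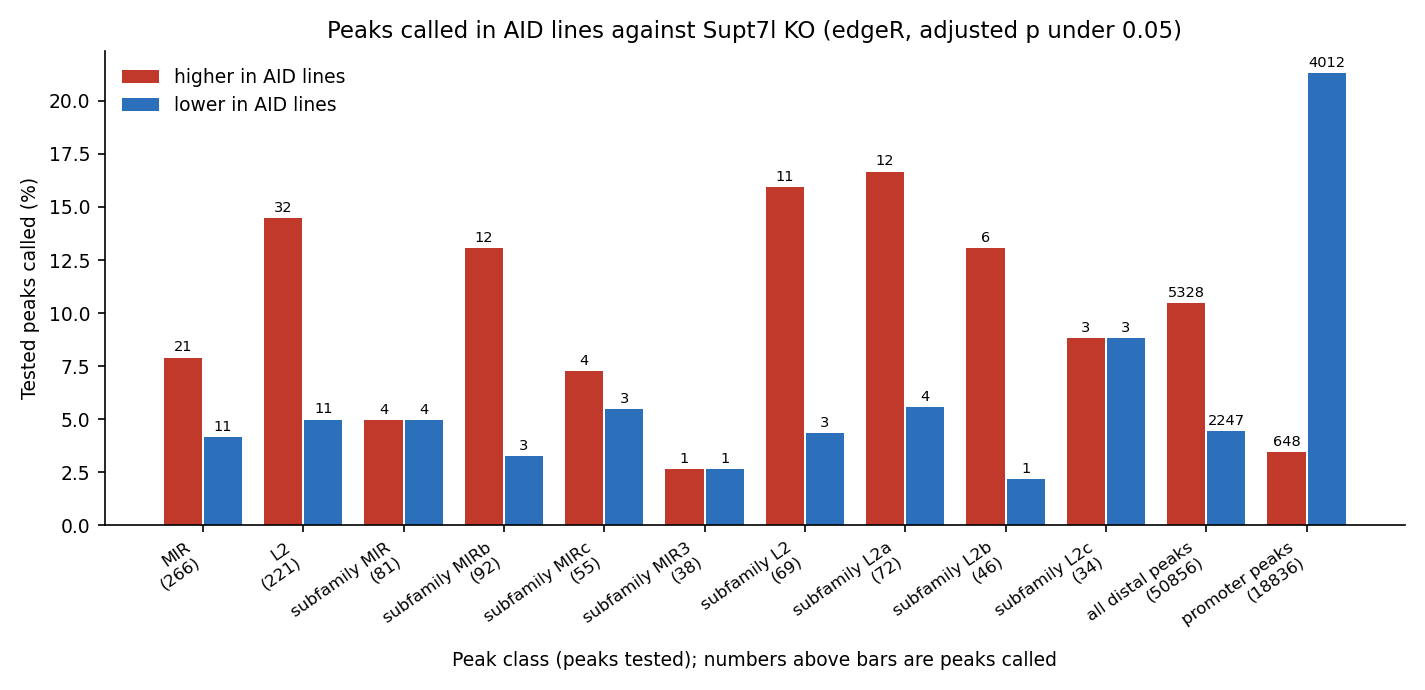
Percent of tested peaks called higher (red) or lower (blue) in the AID lines against Supt7l KO, for both families, their 8 subfamilies, all distal peaks and promoter peaks; the number tested is in brackets and the number called above each bar. L2 (14.5%) is above and MIR (7.89%) below the distal background of 10.5% on the higher side.

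The largest difference was again at the L2 peak in Galm near Gm25706, with a log2 fold change of 2.02 ± 0.19 (a 4.05-fold higher level in the AID lines; adjusted p = 2.68e-13). Next came an intergenic L2 peak near Gm31727 (chromosome 8, 26258373 to 26258749), with 0.666, 1.93, 6.19 and 7.75 CPM in AID-Zzz3, 8.72, 4.93, 3.20 and 4.47 CPM in AID-Yeats2, 1.96, 1.05, 0.615 and 1.66 CPM in Supt7l KO and 2.79, 3.70, 3.24 and 2.39 CPM in WT (log2 fold change 1.78 ± 0.42, adjusted p = 0.00169). AID-Zzz3 replicates 1 and 2 fell in the range of Supt7l KO at this peak, so the sides overlapped. An L2a peak in an intron of Ntrk3, the neurotrophin-3 receptor gene (chromosome 7, 78530048 to 78530597), had 7.32, 2.168, 3.94 and 8.50 CPM in AID-Zzz3, 7.13, 5.34, 4.18 and 5.07 CPM in AID-Yeats2, 2.70, 1.26, 0.308 and 2.49 CPM in Supt7l KO and 2.61, 3.24, 5.76 and 3.11 CPM in WT (log2 fold change 1.64 ± 0.38, adjusted p = 0.00130). These are low levels of a few CPM, with a single AID-Zzz3 library inside the Supt7l KO range.

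Intronic peaks of Ston1, an endocytosis gene (MIRb), and Map4k3, a kinase gene (L2c), both in the chromosome 17 block, had log2 fold changes of 1.38 ± 0.26 (adjusted p = 9.83e-05) and 1.36 ± 0.29 (5.19e-04), with every AID library above every Supt7l KO library. At Ston1 the AID lines averaged 11.1 ± 0.863 CPM (AID-Zzz3) and 11.5 ± 2.76 CPM (AID-Yeats2), Supt7l KO 4.36 ± 1.76 CPM and WT 8.13 ± 4.08 CPM (SD, n = 4 each). WT replicate 3 (14.2 CPM) stood far above the other 3 WT libraries. Outside the blocks, L2a peaks near Gm4812 and Gm24611 gave 1.33 ± 0.36 (adjusted p = 0.00598) and 1.32 ± 0.29 (8.19e-04). The MIR peaks highest in the AID lines, after Ston1, were near Zfp36l2 (1.29 ± 0.42; adjusted p = 0.0243), at the end of Nudt12, an NADH pyrophosphatase gene (1.26 ± 0.39; 0.0161), and in an intron of Vav3, a guanine nucleotide exchange factor gene (1.23 ± 0.33; 0.00597). The call at Zfp36l2 was lost without any 1 of AID-Zzz3 replicate 1, AID-Yeats2 replicate 2 and Supt7l KO replicates 1, 3 and 4 (adjusted p up to 0.103), and that at Nudt12 without Supt7l KO replicates 1 and 3 (up to 0.0755). With loess offsets both were lost (adjusted p = 0.0986 at Zfp36l2 and 0.0675 at Nudt12). The other 8 of these 10 held whichever of the 12 libraries was left out.

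On the lower side, 6 of the 10 members named here lie in the chromosome 14 block. They are intronic peaks, nearest to Gm33524 (MIRc, near Egr3 in RefSeq; -1.24 ± 0.26), Dgkh (L2; -1.18 ± 0.20), Gm30806 (MIRb, near Ebf2; -0.98 ± 0.16), Gm47074 (MIRc, in Fam167a; -0.91 ± 0.25), Gm48954 (L2, in Epsti1; -0.69 ± 0.16) and Mir6539 (MIR3, in Dock5), with adjusted p-values from 6.91e-06 to 0.00734. The peak in Dgkh had 12.3, 11.6, 8.16 and 14.5 CPM in AID-Zzz3, 4.75, 5.95, 7.14 and 10.4 CPM in AID-Yeats2, 20.4, 27.1, 22.1 and 12.7 CPM in Supt7l KO and 12.5, 11.8, 9.71 and 19.8 CPM in WT. Its 3 highest libraries were all Supt7l KO, and Supt7l KO replicate 4 fell among the AID-Zzz3 libraries. Over all 1594 tested peaks of that block the median log2 fold change was -0.49, and over its 16 members -0.45.

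Outside the block, the members that were lowest in the AID lines were a MIRb peak in an intron of Cnr2, a cannabinoid receptor gene (chromosome 4, 135898256 to 135898909; log2 fold change -0.95 ± 0.28, adjusted p = 0.0102), an exonic L2 peak of Gm38235 (-0.73 ± 0.18; 0.00295), an L2c peak in an intron of Ttc4 (-0.71 ± 0.19; 0.00583) and an L2b peak in an intron of Tenm4 nearest to Gm22226 (-0.70 ± 0.19; 0.00678). At Tenm4, a teneurin gene, the levels were 10.3, 8.43, 8.44 and 11.3 CPM in AID-Zzz3, 5.55, 11.1, 9.11 and 8.94 CPM in AID-Yeats2, 12.8, 14.7, 16.6 and 16.3 CPM in Supt7l KO and 13.4, 15.5, 10.3 and 16.7 CPM in WT. All AID libraries were below all Supt7l KO libraries there, and WT overlapped both sides. The call at Cnr2 was lost without Supt7l KO replicate 1 or 2 (adjusted p up to 0.0823) and that at Ttc4 without Supt7l KO replicate 1 (up to 0.0696). Right beside the Ttc4 peak lies a MIRc member that was not called (log2 fold change 0.48 ± 0.27, adjusted p = 0.222).

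Libraries of the AID lines lay wholly above Supt7l KO at 20 members (13 L2, 7 MIR), against 3.62% of all tested peaks, and wholly below at 7 (2 L2, 5 MIR), against 3.76%. Outside the blocks these were 16 and 4 of 463 tested members, beside 1958 and 678 of the 48956 distal peaks there.

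The members in the 2 blocks shifted together with the other peaks there. On chromosome 17 from 70 Mb the median member stood, relative to the WT mean, at 0.45, 0.35, 0.064 and 0.43 in AID-Zzz3, 0.15, 0.45, 0.18 and 0.23 in AID-Yeats2, -0.67, -0.65, -0.69 and -0.61 in Supt7l KO and -0.16, 0.33, 0.36 and -0.32 in WT (log2, replicates 1 to 4). WT replicates 2 and 3 were with the AID lines, and WT replicates 1 and 4 lay between them and Supt7l KO. On chromosome 14 from 60 Mb the medians were -0.12, -0.18, -0.43 and -0.18 in AID-Zzz3, -0.33, -0.16, -0.20 and -0.089 in AID-Yeats2, 0.30, 0.22, 0.25 and 0.22 in Supt7l KO and 0.17, -0.19, -0.21 and 0.16 in WT. There the order was turned round, with Supt7l KO and WT replicates 1 and 4 high. Of the 75 calls between the AID lines and Supt7l KO, 6 higher ones lay in the chromosome 17 block and 7 lower ones in the chromosome 14 block. In the chromosome 17 block that was 75% of its members, beside 68.2% of all its tested peaks called higher. In the chromosome 14 block it was 43.75% of its members, beside 44.7% of all its tested peaks called lower.

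**Figure D5:**
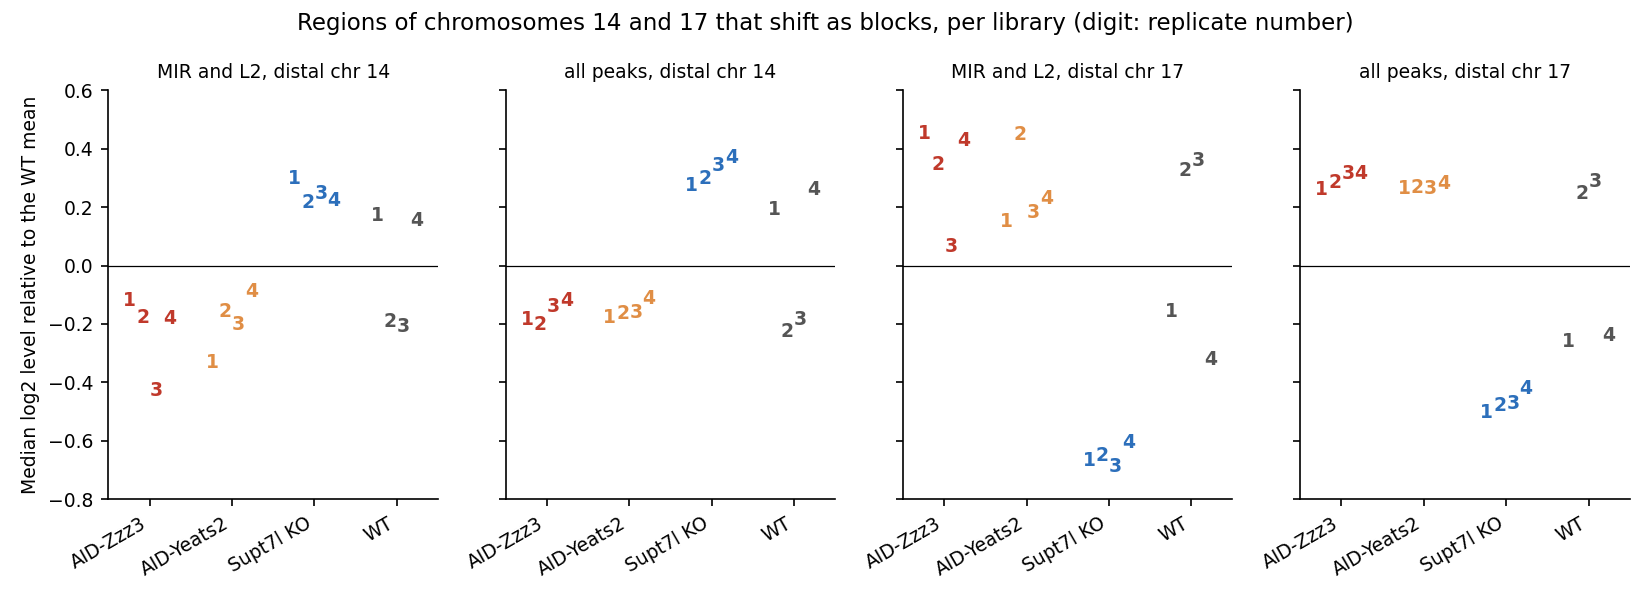
Median log2 level relative to the WT mean in each library, over the members and over all tested peaks of chromosome 14 from 60 Mb and chromosome 17 from 70 Mb; digits are replicate numbers, in columns by genotype. WT replicates 1 and 4 fall apart from WT replicates 2 and 3 in all 4 panels, and the members follow all peaks.

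AID-Yeats2 was set against AID-Zzz3 to ask whether the 2 ATAC lines differ at these repeats. No member was called in either direction by edgeR (smallest adjusted p = 0.858) or DESeq2, and of all tested peaks 0% were called higher and 0% lower by edgeR. Unadjusted p-values under 0.05 were reached by 21 members, 13 higher and 8 lower in AID-Yeats2, which is 4.31% of those tested, beside 5.13% of all tested peaks. All AID-Yeats2 libraries lay above all AID-Zzz3 libraries at 6 members and below them at 3, against 1.55% and 1.5% of all tested peaks. Both counts were the same among the 463 tested members outside the blocks, beside 822 and 731 of the 48956 distal peaks there. The first by p was a MIR peak in an intron of Pirt, a gene of sensory neurons (chromosome 11, 66913958 to 66914742), with 15.1, 12.9, 13.8 and 21.8 CPM in AID-Yeats2 and 6.66, 12.3, 8.16 and 9.502 CPM in AID-Zzz3, beside 10.1, 8.81, 12.6 and 10.2 CPM in Supt7l KO and 15.8, 11.6, 14.2 and 12.7 CPM in WT. Every AID-Yeats2 library lay above every AID-Zzz3 library (log2 fold change 0.76 ± 0.23). The next were Dlx4 (MIR; 1.26 ± 0.39), Kif5c (L2; 0.99 ± 0.33), Pdlim5 (MIR; 0.80 ± 0.27) and Gm25888 (MIRb; -0.56 ± 0.19), with adjusted p-values from 0.910 to 0.922. A p that misses the threshold does not show that the 2 lines are alike.

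Genes of pluripotency, of early lineages and of both complexes were looked up among the nearest genes of the members. Of 117 genes in 7 lists, 5 had a member, and none of these 5 members was called in any comparison. They were Il6st among 30 naive pluripotency genes, Etv5 and Pou3f1 among 20 genes of formative and primed pluripotency, and Atxn7 and Taf5l among 27 subunits of ATAC and SAGA. Primitive endoderm, trophoblast, mesendoderm and neuroectoderm genes had none. The MIRb peak in an intron of Etv5, an ETS transcription factor gene, had 23.97, 19.99, 24.8 and 23.3 CPM in AID-Zzz3, 20.6, 23.8, 23.6 and 19.1 CPM in AID-Yeats2, 20.4, 17.2, 23.7 and 26.5 CPM in Supt7l KO and 19.2, 23.4, 16.2 and 22.5 CPM in WT. At Taf5l, a SAGA subunit gene, an intronic MIR peak had 8.22 ± 2.03 CPM in AID-Zzz3, 6.55 ± 0.718 CPM in AID-Yeats2, 8.78 ± 1.58 CPM in Supt7l KO and 8.37 ± 1.01 CPM in WT (SD, n = 4 each). The L2a peak of Atxn7, the gene of a deubiquitinase module subunit of SAGA, averaged 5.99 ± 1.34, 6.59 ± 2.97, 7.46 ± 0.859 and 5.22 ± 1.26 CPM in the same order, and the MIRb peak near Pou3f1, a POU transcription factor gene, 4.54 ± 1.32, 3.48 ± 1.71, 4.91 ± 2.32 and 3.20 ± 1.07 CPM. The genotypes overlapped at these peaks, except that AID-Yeats2 lay wholly below WT at Taf5l without a call (log2 fold change -0.35 ± 0.26, adjusted p = 0.589).

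The authors' deposited table of DESeq2 comparisons called more members than edgeR did in the fit without a term for the sets of replicates. The authors' comparisons are deposited under a name with batchday in it, so their model may have held a term for experiment day. The calls may thus come from unlike models, and the cause of the difference was not tested. At an adjusted p under 0.05 the authors' deposited table had 9 members higher and 3 lower in AID-Zzz3 against WT, 4 and 3 in AID-Yeats2 against WT, 0 and 7 in Supt7l KO against WT, and 0 and 0 in AID-Yeats2 against AID-Zzz3. Over all 70150 peaks of the authors' deposited table these shares were 0.949% and 0.47%, 0.84% and 0.443%, 0.439% and 0.847%, and 0% and 0%. All 6, 2 and 4 members called by edgeR against WT in the fit without that term were among the calls of the authors' deposited table in the same comparison. With the sets as a term, edgeR called 8 higher and 3 lower in AID-Zzz3 against WT. It then called 4 and 3 in AID-Yeats2 and 0 and 6 in Supt7l KO against WT.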

How the data were processed

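ATAC-seq was measured in 16 libraries of mouse ES cells, 4 per genotype, and the deposited table gives the authors' raw read counts over 70150 peaks called across the series, with the nearest gene (Ensembl 94) and repeat of each peak, per the file headers. Per the submitters' processing notes, the tools named are DESeq2 1.16.1, bedtools 2.26.0, HOMER, MACS2 2.1.1.20160309, Bowtie2 2.2.6 and bcl2fastq 2.17.1.14, and the build mm10. The authors' deposited log2 fold changes and adjusted p-values were used in the last paragraph of the results alone. The 16 normalised and 4 group mean columns were not used.

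Counts as deposited were tested with edgeR 4.0.16 in R 4.3.3 (filterByExpr, TMM, quasi-likelihood F-test over all 16 libraries, no covariate, adjustment by Benjamini-Hochberg over all 69692 tested peaks, threshold 0.05). SE is the size of the log2 fold change divided by the square root of F. Tables were handled in Python 3.11.15 with pandas 2.3.3. The tests were also run on simulated counts with the same spread for all peaks and no effect of replicate sets or chromosome blocks. That run therefore says nothing about such effects. Shares of raw counts and class medians have no test. PCR reads without molecular identifiers are not independent molecules. Members and gene lists were chosen with earlier results of these data known. Peaks named were the 5 most open per family in WT, those called against WT, the 10 strongest in each direction between the AID lines and Supt7l KO, the leading ones where fewer than 5 were called, and list genes. Replicate numbers did not pair the libraries (correlations of deviations 0.0167 to 0.114 within numbers), but replicates 1 and 2 deviated apart from replicates 3 and 4, so values are also given within these sets. No genome was used here, so letters inside peaks were read only from RefSeq promoter windows, and motif searches in the peaks themselves were not run. Alternatives were other scalings, no count filter, other distance limits, replicate blocks, DESeq2 1.42.0, a threshold of 0.10 and leaving out each library. Those within replicate sets and without the chromosome 14 and 17 blocks were added after seeing the data.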

Additional observations from a re-analysis of the deposited data

Results flagged for a closer look

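At 6 of 128 groups of 4 libraries examined among the named peaks, 1 library stood far from the other 3, and chance alone gives about 1 in 20. WT replicate 4 had 27.2 CPM at the MIR peak of Tmem51os1, below the other WT libraries, and WT replicate 2 had 13.9 CPM at the MIRb peak near 2810471M01Rik, above them. Supt7l KO replicate 3 had 26.1 CPM at the MIRb peak near Gm11223, above its group. AID-Yeats2 replicate 1 had 7.13 CPM at the L2 peak near Gm47884, below its group. AID-Zzz3 replicate 2 had 17.1 CPM at the intronic L2 peak of Cerkl, below its group, and AID-Zzz3 replicate 4 had 8.001 CPM at the L2a peak of Atxn7, above it.

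The AID lines and Supt7l KO were also called different from each other at 9 of the 12 peaks called against WT (75%), beside 80.3% of all 1734 peaks called against WT. The 12 peaks were chosen for their levels in the libraries that this comparison uses again, so the overlap is favoured by that choice and is given as a description only. Among peaks called in AID-Zzz3 against WT, the log2 fold change of the AID lines over Supt7l KO was 1.10 at Gm48155, 0.70 at Stk32a, 0.73 at Gm43363, 0.37 at Gm11223 and -0.59 at the L2c peak of Cerkl. Among peaks called in Supt7l KO against WT it was 2.02 at Gm25706, 1.12 at Gm47884, 0.61 at Gm13549 and 1.02 at 2810471M01Rik. The remaining 3, at Pdzd2, 1700086O06Rik and Gm44052, were not called in it.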

How the results depend on the processing

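At this depth, peaks of a few CPM rest on few counts. Calls were lost without 1 library at low peaks and at better covered ones such as Gm43363 (7 of 8 fits). The cause of each change below was not tested, and no named peak changed direction under any alternative. Of values for named peaks, 538 kept their side of the threshold, 63 lost a call and 12 gained one, and of values for counts, medians and shares, 352 stayed close and 80 moved.

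In AID-Zzz3 against WT, the 5 higher members became 8 with a replicate block (numbers 1 to 4) and 8 with a block for sets of replicates, 0 within replicates 1 and 2, 2 within replicates 3 and 4 and 9 at an adjusted p under 0.10. The 1 lower member became 2 with loess offsets, 3 with either block, 0 and 0 within the sets, 2 with DESeq2 and 4 at 0.10. Without 1 library the higher count was 1 (AID-Zzz3 replicate 3 or WT replicate 1) to 4 (AID-Zzz3 replicate 2), and the lower count 0 to 2 (WT replicate 3). In AID-Yeats2 against WT, the 2 higher members became 3 with the block for numbers, 4 with that for sets, 0 and 1 within the sets and 8 at 0.10. The 0 lower became 4 and 3 with the blocks, 1 with only the groups compared and 4 at 0.10. Without 1 library there were 1 to 2 higher and 0 to 2 lower (2 without WT replicate 3). In Supt7l KO against WT, the 4 lower members became 1 and 2 within the sets, 8 at 0.10 and 1 (Supt7l KO replicate 4, WT replicate 2 or 3) to 5 without 1 library. The 0 higher became 1 at 0.10 and 0 to 2 without 1 library (2 without WT replicate 1). Between the AID lines and Supt7l KO, the 53 higher became 12 and 35 within the sets and 37 to 51 without 1 library. The 22 lower became 12 with library totals alone, 9 and 10 within the sets, 36 at 0.10 and 13 (Supt7l KO replicate 2) to 27 without 1 library. AID-Yeats2 against AID-Zzz3 stayed at 0 in every fit. Replicate numbers did not pair the libraries: 9 of 16 were closest to their own number, and blocks changed no other count by over 1.5 times.

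The median log2 fold change of MIR peaks in AID-Zzz3 was -0.024 and 0.050 within the sets. In Supt7l KO it was -0.076 with library totals alone, -0.096 within replicates 1 and 2 and -0.069 to -0.029 without 1 library. For L2 it was 0.066 within replicates 3 and 4 and 0.017 to 0.047 without 1 library in AID-Zzz3. In AID-Yeats2 it was 0.11 with library totals alone, 0.051 with loess offsets, 0.037 and 0.12 within the sets and 0.061 to 0.11 without 1 library, and in Supt7l KO -0.097 with library totals alone. Differences in share from WT, in percentage points, were 0.00306, 0.00579 and -0.0137 for MIR in AID-Zzz3, AID-Yeats2 and Supt7l KO, and -0.0200, -0.0183 and -0.00324 when taken of distal counts. For L2 they were 0.00998, 0.0119 and -0.0109, and -0.00160, -5.56e-04 and -0.00334 of distal counts, so the AID lines changed sign in both families. In AID-Zzz3 the L2 difference was 0.00254 and 0.0174 within the sets.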
